A study of Homo sapiens with 6 samples.

Results

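AP-1 is a family of dimeric transcription factors built from FOS, JUN and ATF proteins, and its 8 subunit genes followed here are FOS, FOSB, FOSL1, FOSL2, JUN, JUNB, JUND and ATF3. They were found by gene symbol in a count table of 36884 genes, in which each symbol stood on 1 row. The cells were RPE1, an immortalized, non-transformed human line derived from retinal pigment epithelium, in which CRISPR-Cas9 editing had removed the function of LATS1 and LATS2, the kinases of the Hippo pathway. This edit was shared by every library. One group was transfected with control siRNA and the other with siRNA against MK5, the kinase made from the gene MAPKAPK5. RNA was sequenced 48 h later from 3 libraries per group, which the submitters call biologic replicates. Same-numbered libraries of both groups share a code in their descriptions, RPEKO followed by the replicate number, and what it stands for is not stated. Whether the edited cells were 1 clone or several, and whether the siRNA was 1 sequence or a pool, is not given in the sources used here. The comparison asks how transcription in cells lacking LATS kinases responds when MK5 is lowered.

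Every AP-1 protein carries a basic region that contacts DNA and a leucine zipper through which 2 subunits pair. JUN proteins pair with each other or with FOS proteins, whereas FOS proteins need a JUN partner to bind DNA. FOS, FOSB, JUNB and ATF3 are known as genes that are induced quickly by growth factors and stress, and FOSL1 and FOSL2 (the proteins FRA1 and FRA2) as the more sustained FOS-type subunits of adherent and transformed cells. AP-1 sits on many enhancers together with TEAD factors and the coactivators YAP and TAZ, which the LATS kinases restrain.

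The promoters of these genes were searched for the words that AP-1 and CREB-type factors are known to bind. RefSeq promoter windows of GRCh38.p14, from 250 bases before to 50 bases after a gene start, were matched for 7 of the 8 members, with 2 windows for ATF3. FOSL1 was not matched. The following 30-base stretches are shown because they hold these words, in capitals: TGACG, the half-site of the cAMP response element (CRE), in FOS, FOSB, FOSL2 and JUNB, the whole CRE TGACGTCA in JUND, and the related TGACATCA in JUN and ATF3.
FOS: gtggttgagcccgTGACGtttacactcatt
FOSB: agcaaggggcgggTGACGtaagcagggggg
FOSL2: tggagtctggggtTGACGtgagtgaatcca
JUNB: cgcttcctgacagTGACGcgagccgcctcc
JUND: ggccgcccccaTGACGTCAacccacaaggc
JUN: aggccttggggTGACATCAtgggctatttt
ATF3: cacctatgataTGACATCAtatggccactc

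All are written 5′ to 3′ on the strand of the gene. The FOS stretch lies at chr14:75278751-75278780 (plus strand) and its capitals begin 64 bases before the start. In FOSB the stretch is chr19:45467923-45467952 (plus strand) and the match begins 60 bases before the start, and in FOSL2 it is chr2:28392779-28392808 (plus strand) with the match 66 bases before the start. The JUNB stretch, chr19:12791336-12791365 (plus strand), has its match 137 bases before the start. JUND (chr19:18281804-18281833, minus strand) has its CRE 200 bases before the start. JUN (chr1:58784096-58784125, minus strand) and ATF3 (chr1:212565273-212565302, plus strand) have theirs 67 and 123 bases before the start. Read on both strands, TGACG was found in 6 of the 8 member windows (those of FOS, FOSB, FOSL2, JUN, JUNB and JUND) and in 24.6% of all 35116 windows of the same length. It is contained in TGACGTCA, which was found in 1 member window and in 1.85% of all windows. TGACATCA was found in 2 member windows and in 2.61% of all. The AP-1 site itself, TGACTCA or TGAGTCA, was found in the FOSL2 window only, against 4.95% of all windows, and the CArG box bound by SRF in no member window, against 1.29%. The TATA box word TATAAA, read on the gene strand, was found in 4 member windows (FOS, FOSB, JUNB and 1 window of ATF3) and in 7.33% of all. It begins 33, 30 and 31 bases before the start in FOS, FOSB and JUNB. In ATF3 it begins 230 bases before the start, in the window that does not hold the stretch shown. Matched words describe these windows and do not show that a factor binds, and a missing word says only that these letters are not in this window. Whether these words bear on the changes given below was not tested.

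Libraries held between 27188074 and 28236773 counts. MAPKAPK5, the siRNA's target, was at 29.05 to 35.6 CPM in the control libraries and at 14.1 to 17.4 CPM in the MK5 siRNA libraries (log2 fold change −1.01 ± 0.14, edgeR adjusted p = 0.00169). In each group replicate 1 differed from the other replicates. The variation between replicates that edgeR estimated (biological coefficient of variation) was 21.2% with every library and 4.63% in replicates 2 and 3 alone. Of 9 markers of retinal pigment epithelium, 3 exceeded 1 CPM, while TTR was at 0 and RPE65, RLBP1 and TYR averaged at most 0.0246 CPM in either group. The summed level of these 9 was 84.0 to 95.6 CPM in control and 58.4 to 66.6 CPM in MK5 siRNA libraries. The 5 epithelial markers summed to 753 to 828 CPM in control and 387 to 573 CPM in MK5 siRNA libraries, with EPCAM at 0, and the 3 mesenchymal ones to 7073 to 8110 and 6802 to 8740 CPM. The 4 immune markers summed to at most 0.295 CPM in any library. The 3 endothelial markers, of which PECAM1 was at 0, summed to 0.658 to 3.22 CPM in control and 0.0673 to 0.348 CPM in MK5 siRNA libraries. Most of the retinal difference was in MITF (54.05 ± 4.08 against 25.3 ± 3.45 CPM), while OTX2 was at 32.4 ± 2.61 and 34.8 ± 0.920 CPM, and most of the endothelial one was in VWF (1.30 ± 1.27 against 0.164 ± 0.107 CPM). The epithelial difference was in KRT8 and KRT18. The part of these markers in the results below was not tested. In such bulk RNA, fewer cells of a type and less RNA per cell cannot be told apart.

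MK5 siRNA was followed by higher levels of 5 of the 8 AP-1 subunits and a lower level of 1. FOSB, FOS, ATF3, JUNB and JUND rose, FOSL1 fell, and JUN and FOSL2 did not pass the test (quasi-likelihood test of edgeR, p adjusted over 13431 genes by Benjamini-Hochberg, threshold 0.05). All 8 members passed the filter on low counts. Of all genes tested, 46.2% passed, 22.5% upward and 23.7% downward. The members' median log2 fold change was 1.43, beside 0.0003 for all genes tested. In 6 of the 8, no MK5 siRNA library overlapped a control library, which was so for 60.4% of all genes tested, 30.6% upward and 29.8% downward. Each log2 fold change compares MK5 siRNA with control siRNA and carries the standard error of the fit (n = 3 per group). Levels are CPM, read counts scaled to a common library size with TMM factors, with means ± SD over 3 libraries. Whether the replicates came from separate cultures is not stated beyond the word biologic. The p-values set each group difference against the spread between these libraries, which edgeR moderates across genes.

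**Figure D1:**
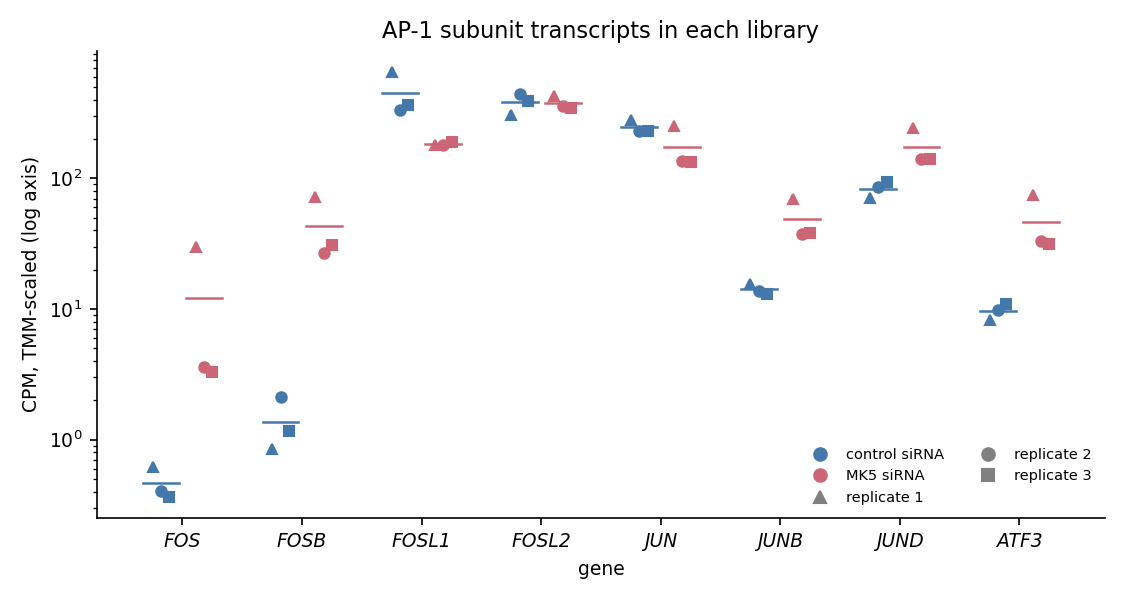
Level of each AP-1 subunit transcript in each of the 6 libraries, in TMM-scaled CPM on a log axis; colours mark the siRNA, symbols the replicate number, and lines the group means. FOS, FOSB, JUNB, JUND and ATF3 lie higher in every MK5 siRNA library, FOSL1 lies lower, and FOSL2 and JUN overlap between the groups.

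FOS (ENSG00000170345), the founding subunit, was close to the limit of counting in control cells. It had 16, 11 and 10 counts in control replicates 1, 2 and 3, which is 0.613, 0.406 and 0.366 CPM. After MK5 siRNA it had 813, 103 and 97 counts, or 29.7, 3.58 and 3.27 CPM. All MK5 siRNA libraries lay above all controls, and replicate 1 lay far above the other MK5 siRNA libraries. The log2 fold change was 4.71 ± 1.05 (edgeR adjusted p = 0.0103). Leaving out MK5 siRNA replicate 1 gave 2.88 (edgeR adjusted p = 0.00342) and 3.14 ± 0.26 in replicates 2 and 3 alone (edgeR adjusted p = 1.27e-09). With limma the log2 fold change was 3.02 on log2(CPM + 0.5) and 1.99 on log2(CPM + 2) (limma adjusted p = 0.0168 and 0.0434). Both scales shrink the change of low genes, and limma averages logs, which gives the high replicate 1 less weight. Between libraries of replicate number 1, 2 and 3 FOS differed by 4.76, 2.17 and 2.12 on log2(CPM + 0.5). How much each of these lowered the limma values was not tested. DESeq2 gave FOS a log2 fold change of 4.71 but no adjusted p, so FOS was not called there. Why the adjusted p is missing was not recorded. Of the other 7 members DESeq2 called 4 higher and 1 lower. Of all genes with an adjusted p it called 44.2%, 20.9% upward and 23.3% downward.

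FOSB (ENSG00000125740), the closest relative of FOS, was at 0.843, 2.101 and 1.17 CPM in the control libraries. It reached 72.2, 26.8 and 30.7 CPM after MK5 siRNA, again highest in replicate 1 and with no overlap between groups. Its log2 fold change of 4.97 ± 0.54 (edgeR adjusted p = 0.000735) was 4.39 without MK5 siRNA replicate 1 and 4.14 ± 0.16 in replicates 2 and 3 alone. Between libraries of replicate number 1, 2 and 3 it differed by 5.76, 3.39 and 4.22 on the scale of log2(CPM + 0.5). On that scale limma gave 4.46, and on log2(CPM + 2) it gave 3.63 (limma adjusted p = 0.000435 and 0.000562).

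FOSL1 (ENSG00000175592), which encodes FRA1, went the other way. It was at 652, 332 and 362 CPM in the control libraries and at 181, 179 and 190 CPM after MK5 siRNA. The MK5 siRNA libraries lay close together and below every control, and the spread was in the controls, where replicate 1 was highest. FOSL1 fell by 2.44-fold (log2 fold change −1.29 ± 0.26, edgeR adjusted p = 0.00681). Leaving out control replicate 1 gave −0.91 (edgeR adjusted p = 3.11e-05) and −0.91 ± 0.06 in replicates 2 and 3 alone.

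FOSL2 (ENSG00000075426), which encodes FRA2, gave no difference over the 6 libraries. Its levels were 307, 442 and 394 CPM in the controls and 426, 356 and 346 CPM after MK5 siRNA. The groups overlapped, since the lowest control and the highest MK5 siRNA library were both replicate 1. The log2 fold change was −0.02 ± 0.16, with a 95% interval from −0.40 to 0.36 (edgeR adjusted p = 0.932). In replicates 2 and 3 alone it was −0.25 ± 0.06 and passed (edgeR adjusted p = 0.00119). In that smaller comparison 75.8% of 13690 genes passed, 37.9% upward and 37.8% downward.

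JUN (ENSG00000177606), the prototype JUN subunit, was at 280, 230 and 231 CPM in the control libraries. After MK5 siRNA it was at 252, 137 and 135 CPM, so that replicate 1 stayed within the control range and replicates 2 and 3 lay below it. The log2 fold change of −0.50 ± 0.26 did not pass (edgeR adjusted p = 0.153), with a 95% interval from −1.11 to 0.11. With the replicate number as a block it was −0.56 ± 0.16 and passed (edgeR adjusted p = 0.0456). It also passed without MK5 siRNA replicate 1, at −0.86 (edgeR adjusted p = 0.00841), and in replicates 2 and 3 alone, at −0.76 ± 0.06 (edgeR adjusted p = 3.61e-10). The number of members that fell was accordingly 1 over all libraries, 2 with the block or without MK5 siRNA replicate 1, and 3 in replicates 2 and 3 alone. With the block 47.3% of all genes passed, 23.5% upward and 23.9% downward. Without MK5 siRNA replicate 1, 2502 of 13773 genes rose and 2606 fell. Replicates 2 and 3 alone varied little (biological coefficient of variation 4.63%), and 75.8% of all genes passed there.

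JUNB (ENSG00000171223), a JUN subunit that is a weaker activator than JUN on many promoters, was at 15.5, 13.7 and 13.1 CPM in the controls and at 69.7, 37.6 and 38.4 CPM after MK5 siRNA. The groups were apart, with replicate 1 highest. It rose 3.44-fold (log2 fold change 1.78 ± 0.26, edgeR adjusted p = 0.00209), and by 1.51 ± 0.08 on the log2 scale in replicates 2 and 3 alone. In the GENCODE 29 annotation JUNB shares 259 exon bases with HOOK2 on the opposite strand. HOOK2 was at 7.36 to 11.5 CPM in the controls and 18.5 to 23.5 CPM after MK5 siRNA (1.09 ± 0.21, edgeR adjusted p = 0.00571). The strand setting of the counting is not given in the sources used here, so reads from the shared stretch cannot be told apart.

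JUND (ENSG00000130522), the JUN subunit usually present in resting cells, was at 71.0, 85.8 and 93.0 CPM in the controls. It was at 244, 140 and 140.4 CPM after MK5 siRNA, above every control. It rose 2.098-fold (log2 fold change 1.07 ± 0.24, edgeR adjusted p = 0.0112). Leaving out MK5 siRNA replicate 1 gave 0.75 (edgeR adjusted p = 0.0136). The log2 fold change was 0.65 ± 0.06 in replicates 2 and 3 alone, and JUND had the smallest of the 5 rises in both settings.

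ATF3 (ENSG00000162772), a stress-induced member of the ATF and CREB family that pairs with JUN proteins, was at 8.20, 9.81 and 10.9 CPM in the controls. After MK5 siRNA it was at 74.6, 32.97 and 31.7 CPM. The groups were apart and replicate 1 was again highest. ATF3 rose 4.82-fold (log2 fold change 2.27 ± 0.36, edgeR adjusted p = 0.00283), and by 1.65 ± 0.09 on the log2 scale in replicates 2 and 3 alone.

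**Figure D2:**
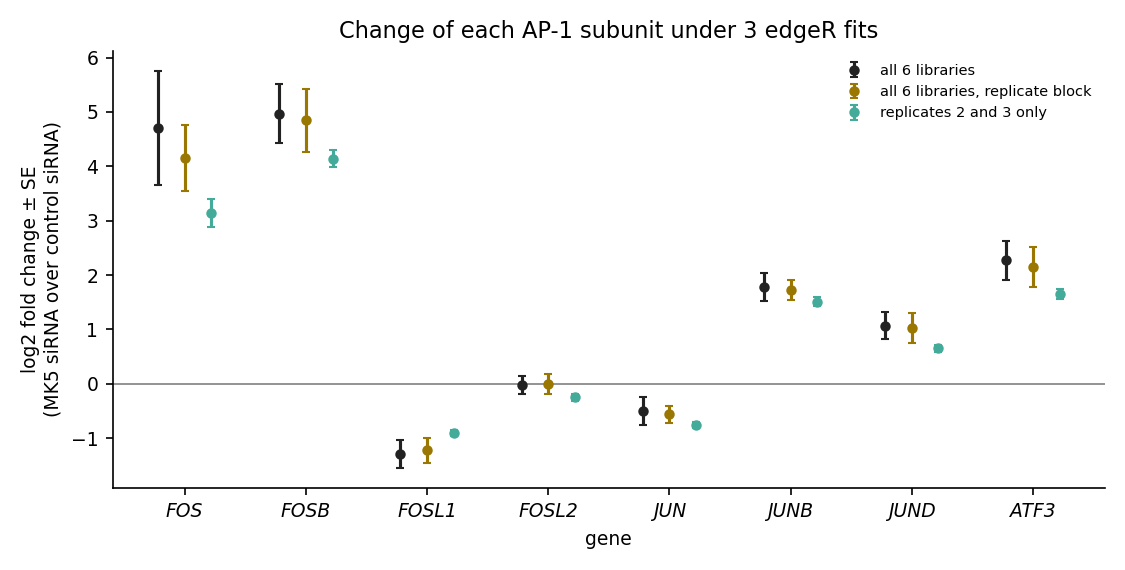
Log2 fold change of each AP-1 subunit, MK5 siRNA over control siRNA, from 3 edgeR fits; bars are ± 1 SE. The 5 rises and the fall of FOSL1 keep their sign in all 3 fits, while FOSL2 lies near 0 over all libraries and at −0.25 in replicates 2 and 3 alone.

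Replicate 1 of the MK5 siRNA group held the highest level of 7 of the 8 subunits, against 44% of all genes tested. For FOS, FOSB, JUN, JUNB, JUND and ATF3 it was at least 1.5 times the mean of replicates 2 and 3, which was so for 3.89% of all genes tested. The ratio was 8.66 for FOS, 2.51 for FOSB, 2.31 for ATF3, 1.86 for JUN, 1.84 for JUNB and 1.74 for JUND. FOSL2, at 1.21, and FOSL1, at 0.982, were nearer to their replicates. In the control group replicate 1 was highest for 4 of the 8, against 45.4% of all genes tested. It was highest and at least 1.5 times the others for FOS (1.59, on 10 to 16 counts) and FOSL1 (1.88), against 16.1% of all genes tested. That library held the lowest level of the other 4 members, with ratios of 0.515 for FOSB, 0.736 for FOSL2, 0.794 for JUND and 0.793 for ATF3. Replicate 1 was thus on the high side for most members in the MK5 siRNA group and for fewer in the control group, a difference that was not tested. Why replicate 1 stood apart was not tested.

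**Figure D3:**
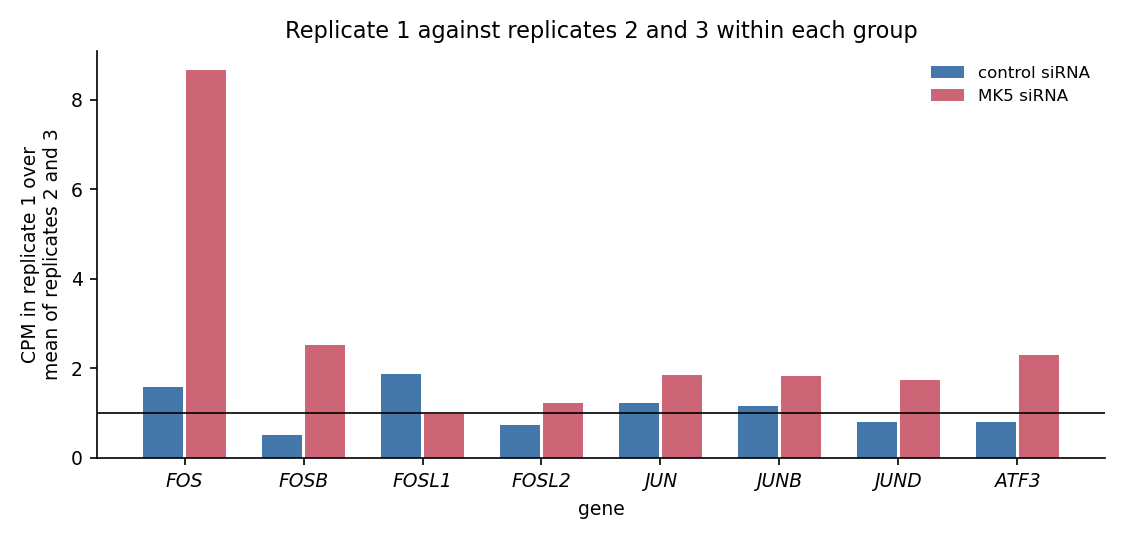
CPM of each AP-1 subunit in replicate 1 divided by the mean of replicates 2 and 3 of the same group, on a linear axis from 0; the line marks equality. In the MK5 siRNA group 6 of 8 ratios exceed 1.5, led by FOS at 8.66, while in the control group the highest is FOSL1 at 1.88.

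Levels of different genes can be compared per length, and CPM was therefore divided by the kilobases of exon in GENCODE 29. In control cells the order by mean was FOSL1 (238 ± 93.6 CPM per kilobase), JUN (69.8 ± 8.08), FOSL2 (53.2 ± 9.50), JUND (44.7 ± 6.02), JUNB (7.75 ± 0.691), ATF3 (2.38 ± 0.332), FOSB (0.247 ± 0.118) and FOS (0.143 ± 0.0410). FOSL2 overlapped JUND, and FOSB overlapped FOS, while all other neighbours were apart. After MK5 siRNA the order was FOSL1 (97.3 ± 2.96 CPM per kilobase), JUND (93.8 ± 32.2), FOSL2 (52.5 ± 6.12), JUN (49.3 ± 19.1), JUNB (26.7 ± 10.1), ATF3 (11.5 ± 6.05), FOSB (7.78 ± 4.53) and FOS (3.76 ± 4.68). Here FOSL1 overlapped JUND, FOSL2 overlapped JUN, JUN overlapped JUNB, ATF3 overlapped FOSB and FOSB overlapped FOS. JUND thus moved from rank 4 to rank 2 and JUN from rank 2 to rank 4. The order was the same in both groups with the longest transcript as gene length, although FOS then had 0.214 CPM per kilobase in control cells, and ATF3 4.58 in control and 22.1 in MK5 siRNA cells.

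The makeup of the AP-1 transcript pool shifted from FOSL1 toward JUND. As a share of the summed CPM per kilobase of the 8 genes, FOSL1 made up 49.0% to 66.9% in the control libraries and 22% to 33.8% in the MK5 siRNA libraries. JUND made up 7.38% to 13.4% and 25.3% to 29.97%. JUNB went from 1.65% to 2.098% in controls to 7.04% to 8.77%, and ATF3 from 0.393% to 0.722% to 2.63% to 4.23%. With the longest transcript as gene length ATF3 held 0.688% to 1.28% in controls and 4.64% to 7.38% after MK5 siRNA. FOS and FOSB together, in spite of the largest fold changes, made up 0.0660% to 0.140% of the control pool and 2.02% to 5.07% of the MK5 siRNA pool. JUN held 15.3% to 18.1% and 12.8% to 16.3%, and FOSL2 8.31% to 17.2% and 13.6% to 17.0%, both with overlap. The 4 FOS-type genes together held 66.3% to 75.3% of the control pool and 40.7% to 52.2% of the MK5 siRNA pool, while the 3 JUN genes held 24.4% to 33.04% and 45.1% to 55.1%. The summed level was 517, 359 and 372 CPM per kilobase in control replicates 1, 2 and 3 and 437, 293 and 298 in MK5 siRNA replicates 1, 2 and 3. The groups overlapped, and for each replicate number the MK5 siRNA library was the lower one. These shares are descriptions without a test, and transcript shares say nothing of protein amounts.

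**Figure D4:**
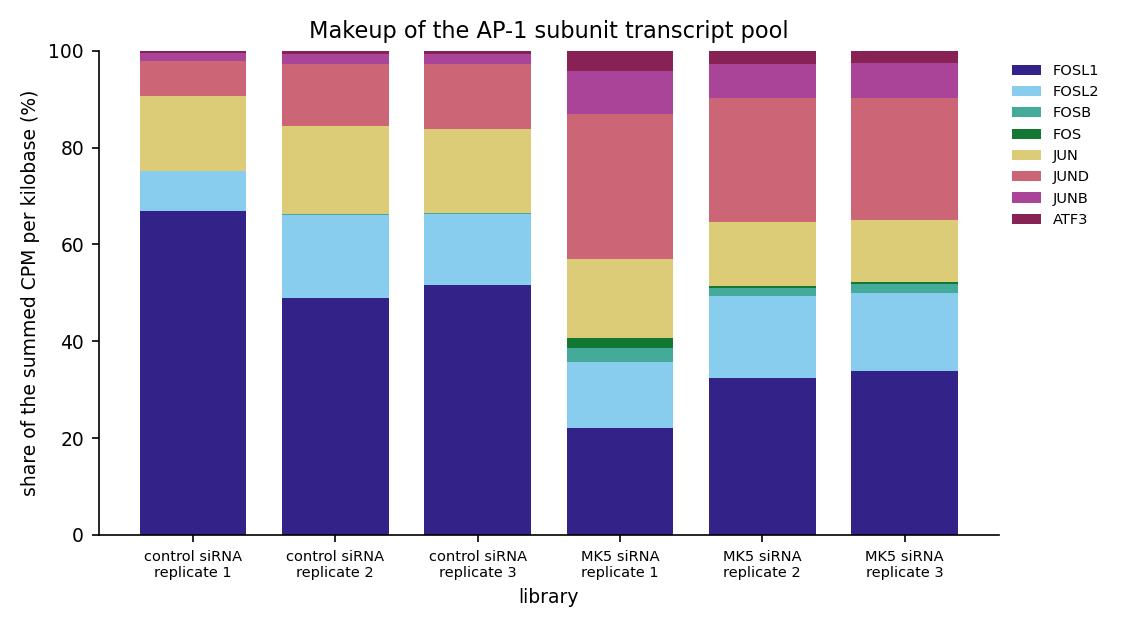
Share of each AP-1 subunit in the summed CPM per kilobase of the 8 genes (vertical axis, %), 1 bar per library. FOSL1 makes up 49.0% to 66.9% of the control bars and 22% to 33.8% of the MK5 siRNA bars, where JUND takes 25.3% to 29.97%.

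Profiles over the 6 libraries were compared by the Euclidean distance between log2(CPM + 0.5) values, each gene centred on its own mean. Among the other members, the nearest to JUNB was ATF3 (0.73), to JUND JUNB (0.937), to FOS ATF3 (1.9) and to FOSB FOS (2.39). FOSL2 and JUN were each other's nearest member (1.03), and JUN was the nearest to FOSL1 (1.22). Among 10481 genes of at least 5 CPM, the nearest to FOS were GPRC5C (1.51) and NR4A2 (1.55), and the nearest to FOSB were NR4A3 (0.761) and CADM1 (1.07). NR4A2 and NR4A3 are orphan nuclear receptors that many stimuli induce. JUNB lay nearest to IER3 (0.262) and FAM174A (0.277), JUND to the kinase gene SIK1 (0.169) and IER2 (0.199), and ATF3 to the chemokine gene CXCL8 (0.479) and PLA2G4A (0.511), a phospholipase. The neighbours of FOSL1 were LYAR (0.13) and the spindle checkpoint kinase gene BUB1 (0.153), which fell by −1.35 and −1.23. FOSL2 lay nearest to SYNE1 (0.0861) and HLA-B (0.104), and JUN to PTGR1 (0.192) and CDKN2A (0.222). Distances grow with the size of a change, and genes with low counts vary more, so they are comparable within a member and not between members.

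Of 14 genes for other leucine zipper proteins that pair with FOS or JUN proteins, 11 were tested, 5 rose and 2 fell, with a median log2 fold change of 0.34. Here and in the lists that follow, counts are to be set beside those of all tested genes. The shares were 22.5% upward and 23.7% downward (46.2% in all), and 37.9% and 37.8% (75.8% in all) in replicates 2 and 3 alone. Without control replicate 1, 4455 of 13774 tested genes rose and 4419 fell. With any other 1 library left out, 2064 to 2502 rose and 2103 to 2750 fell, of 13642 to 13773 tested. DDIT3, which encodes the stress factor CHOP, rose from 6.52 ± 1.27 to 51.3 ± 13.3 CPM (2.98 ± 0.25), and ATF4, the central factor of the integrated stress response, from 257 ± 86.3 to 905 ± 40.6 CPM (1.82 ± 0.23). The small MAF gene MAFG rose from 53.6 ± 7.33 to 162 ± 20.3 CPM (1.59 ± 0.15), with edgeR adjusted p from 0.000343 to 0.00125 for these 3 genes. MAFF, a further small MAF gene, rose by 1.70 ± 0.50 (edgeR adjusted p = 0.0294), by 1.83 with the replicate block (edgeR adjusted p = 0.00446) and 2.05 in replicates 2 and 3 alone (edgeR adjusted p = 2.9e-14). It missed the threshold when any 1 library other than control replicate 1 was left out, at 1.31 to 1.86 (edgeR adjusted p from 0.0513 to 0.106). With MAFK and ATF7 also losing their calls, 3 rose without control replicate 2 or 3 or MK5 siRNA replicate 2 or 3. Only 1 fell without any of these 4 libraries or MK5 siRNA replicate 1. With no filter on low counts 1 fell, and with a mean of at least 5 CPM, which leaves 9 of these genes, 0 fell. Of all genes, 3195 of 22525 and 2652 of 10482 fell in these settings. In replicates 2 and 3 alone 8 rose and 3 fell.

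Of 22 kinases in the pathways that activate AP-1, all tested, 5 rose and 1 fell, with a median of −0.10. The share that passed was below the 46.2% of all genes, and no test of that difference was made. The largest rises were in the ERK5 branch and in a JNK kinase: MAP2K5 rose from 20.2 ± 0.722 to 40.1 ± 2.29 CPM (0.99 ± 0.11), MAP2K7, which activates JNK, by 0.90 ± 0.14, and MAPK7, which encodes ERK5, by 0.84 ± 0.17 (edgeR adjusted p from 0.000736 to 0.00694). MAP2K2, an ERK kinase, rose from 175 ± 12.3 to 246 ± 19.5 CPM (0.49 ± 0.11, edgeR adjusted p = 0.0103). MAPK14, which encodes the p38 alpha kinase, rose by 0.55 ± 0.14 (edgeR adjusted p = 0.0156). It missed the threshold when MK5 siRNA replicate 1 or 2 was left out (edgeR adjusted p = 0.0507 and 0.0595). MAPK8, which encodes JNK1, fell by −0.80 ± 0.23 (edgeR adjusted p = 0.0278). It missed the threshold when any 1 of the MK5 siRNA libraries was left out, at −0.75 to −0.81 (edgeR adjusted p from 0.0807 to 0.0947), which leaves a count of 0. The counts were 8 up and 7 down without control replicate 1, with 2 down without control replicate 2, and 9 up and 8 down in replicates 2 and 3 alone, near the 75.8% of all genes there.

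Of 17 transcription factors known to act on FOS and JUN promoters, all tested, 6 rose and 2 fell, with a median of 0.37. Together this is near the 46.2% of all genes that passed. ELK3, a ternary complex factor that pairs with SRF and can repress FOS, fell from 187 ± 52.4 to 30.6 ± 2.83 CPM (−2.61 ± 0.21, edgeR adjusted p = 0.000318). Its relative ELK4 rose by 0.62 ± 0.14 (edgeR adjusted p = 0.0114). A further relative, ELK1, and SRF itself did not pass, at 0.23 ± 0.11 and 0.20 ± 0.15 (edgeR adjusted p = 0.116 and 0.307). MEF2C, which binds the JUN promoter, rose from 3.45 ± 1.64 to 10.7 ± 1.69 CPM (1.64 ± 0.38, edgeR adjusted p = 0.0123). STAT3, a factor of cytokine signalling, rose from 72.4 ± 5.92 to 130.3 ± 16.03 CPM (0.85 ± 0.13, edgeR adjusted p = 0.00222). CRTC3, a coactivator of CREB, fell by −0.91 ± 0.14 (edgeR adjusted p = 0.00223), and its relative CRTC2 rose by 0.65 ± 0.10 (edgeR adjusted p = 0.00214). CREB1 did not pass, at −0.35 ± 0.14 (edgeR adjusted p = 0.0831). In replicates 2 and 3 alone 9 rose and 4 fell, beside 75.8% of all genes that passed there.

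Of 12 genes of the turnover of AP-1 messages and proteins, all tested, 3 rose and 3 fell, with a median of 0.03, near the shares of all genes (22.5% upward and 23.7% downward). With the replicate block 3 rose and 4 fell. ELAVL1, which encodes HuR, a protein that stabilizes AU-rich messages, fell from 146 ± 20.7 to 66.6 ± 1.84 CPM (−1.13 ± 0.13, edgeR adjusted p = 0.000798). For HNRNPD, which encodes the AU-rich element binding protein AUF1, the fall was from 340 ± 37.6 to 186 ± 11.5 CPM (−0.87 ± 0.12, edgeR adjusted p = 0.00158). The decay factor gene KHSRP fell by −0.40 ± 0.10 (edgeR adjusted p = 0.0155). It missed the threshold when MK5 siRNA replicate 2 or 3 was left out, at −0.39 in both (edgeR adjusted p = 0.075 and 0.0731). The decay factor gene ZFP36 rose by 1.00 ± 0.25, the ubiquitin ligase gene ITCH, whose product targets JUN proteins, by 0.57 ± 0.14 and ZFP36L1, a relative of ZFP36, by 0.48 ± 0.13 (edgeR adjusted p from 0.0137 to 0.0198). These 3 missed the threshold when control replicate 2 was left out (edgeR adjusted p from 0.0507 to 0.0618) or control replicate 3 (edgeR adjusted p from 0.0541 to 0.0673), which leaves a count of 0. ZFP36L1 also missed it when MK5 siRNA replicate 2 was left out (edgeR adjusted p = 0.0571). The rises were 5 without control replicate 1, and 5 rose and 5 fell in replicates 2 and 3 alone.

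Of 28 textbook AP-1 target genes, 20 were tested, 4 rose and 4 fell, with a median of 0.03, near the 46.2% of all genes that passed. With the replicate block 6 rose and 5 fell, beside 47.3% of all genes. The 5 matrix metalloproteinase genes of the list (MMP1, MMP3, MMP9, MMP10 and MMP13), CCL2, AREG and EREG did not reach the filter, at no more than 0.281 CPM in the mean of either group. PLAU, which encodes the plasminogen activator urokinase, fell from 292 ± 128 to 41.6 ± 7.79 CPM (−2.81 ± 0.33, edgeR adjusted p = 0.000916). CCND1, cyclin D1, fell from 1615 ± 858 to 414 ± 20.6 CPM (−1.97 ± 0.34, edgeR adjusted p = 0.0041), with log2 fold changes from −2.21 to −1.43 when 1 library was left out. CXCL8, interleukin 8, rose from 3.67 ± 1.15 to 19.4 ± 9.68 CPM (2.40 ± 0.41, edgeR adjusted p = 0.00368). HMOX1, heme oxygenase 1, rose from 34.7 ± 3.64 to 128 ± 13.7 CPM (1.89 ± 0.13, edgeR adjusted p = 0.000229). VEGFA, vascular endothelial growth factor A, rose by 1.10 ± 0.35 (edgeR adjusted p = 0.0395) and did not pass without control replicate 3 or any 1 of the MK5 siRNA libraries, at 1.03 to 1.26 (edgeR adjusted p from 0.0507 to 0.108). CD44, an adhesion receptor, fell by −0.55 ± 0.14 (edgeR adjusted p = 0.0157) and did not pass without any 1 of the MK5 siRNA libraries, at −0.49 to −0.58 (edgeR adjusted p from 0.0533 to 0.0564). Rises numbered 9 without control replicate 1, and 10 genes rose and 8 fell in replicates 2 and 3 alone, beside 75.8% of all genes.

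**Figure D5:**
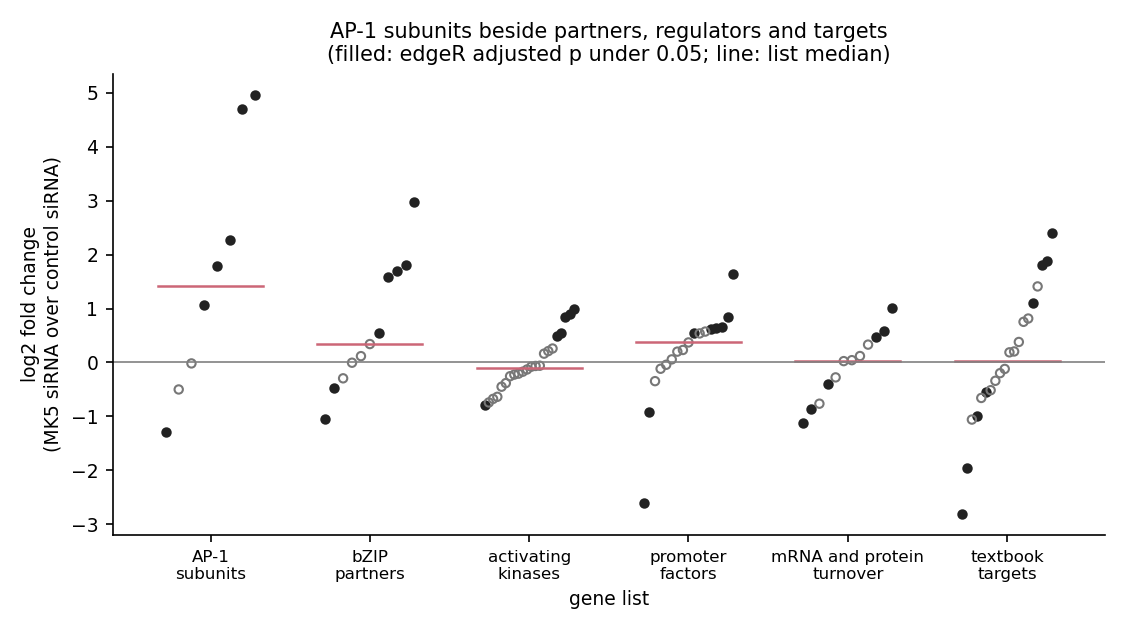
Log2 fold change (MK5 siRNA over control siRNA) of each tested gene in 6 lists, with filled points for edgeR adjusted p under 0.05 and red lines for list medians. The AP-1 subunits have a median of 1.43, the partners 0.34, the kinases −0.10, the promoter factors 0.37, and the turnover and target lists 0.03 each.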

How the data were processed

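The deposited table gives 1 column of counts per library and gene. Its name speaks of CPM, but the values are whole numbers with unequal totals. Between replicates 2 and 3, genes with mean counts from 2 to 5 varied as sampled reads do, with a variance over the Poisson value of 0.95 in control and 1.01 in MK5 siRNA libraries. Tools listed in the submitters' processing notes are HTSeq 0.9.1, TopHat2 2.1.1, Trimmomatic 0.36 and FastQC, with GRCh37. For the annotation release and strand setting, the sources used here give nothing.

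Counts were tested in R 4.3.3 with edgeR 4.0.16: filterByExpr (least count 10, least total 15) kept 13431 genes, TMM scaled the libraries, and the quasi-likelihood test compared the groups, with no replicate block. P-values (two-sided) were adjusted by Benjamini-Hochberg across every gene tested and called under 0.05. The standard error is the log2 fold change over the root of F. The procedure was tested on simulated counts for 13431 genes. It recovered 46% of 100 genes changed by 1 on the log2 scale and 90% of 100 changed by 2. Of the genes it called, 2.86% were unchanged. The simulated libraries were drawn independently, without a deviation shared by a replicate number, and few genes were changed. In the data 46.2% of genes were called, so these recovery and error shares may not hold for them. Alternatives used DESeq2 1.42.0, limma 3.58.1 on log2(CPM + 0.5) and log2(CPM + 2), RLE scaling, no filter, a mean of at least 5 CPM, a replicate block, and libraries left out.

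The groups share replicate numbers. Across genes, deviations from the group means of same-numbered libraries had correlations of 0.258, 0.206 and 0.248. Replicate 1 of either group against replicate 2 or 3 of the other gave −0.263 to −0.208. The main test has no block, and the fit with the block is given beside results whose call it changes. Descriptions give same-numbered libraries a shared code (RPEKO and the number) without saying whether it marks a clone, day or batch. Differently numbered libraries among replicates 2 and 3 gave 0.182 and 0.151, not far below the same-numbered ones. Deviations within a group cancel out, so these correlations depend on each other. Across genes replicate 1 deviated in a partly similar way in both groups, with a correlation of 0.258. Among the members, FOSB, FOSL2, JUND and ATF3 were low in control replicate 1 and high in MK5 siRNA replicate 1. Whether replicates 2 and 3 are pairs is not settled by these values.

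The members and the 5 lists were chosen with earlier results of these data known. Named genes are the members, MAPKAPK5, up to 4 passing genes of largest change in each list with further passing genes over 100 CPM, and the 2 nearest profiles of each member. Genes named beside these (MAFK, ATF7, MAPK14, ELK1, ELK4, SRF, CREB1, CRTC2 and HOOK2) were chosen after their values were seen. GENCODE 29 (GRCh38) gave exon lengths only, and RefSeq gave promoter sequences.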

Additional observations from a re-analysis of the deposited data

How the results depend on the processing

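The 5 rises and the fall of FOSL1 kept their direction and passed under every alternative run, except that DESeq2 gave no adjusted p for FOS. For FOS and FOSB the lowest values came from limma on log2(CPM + 2), at 1.99 and 3.63. With the replicate block JUN passed at −0.56 (edgeR adjusted p = 0.0456), so that 2 members fell; the block changed no other call among the 8. FOSL2 turned to 0.0015 with a filter of at least 5 CPM. Leaving out libraries (each in turn, and replicate 1 in both groups) gave between −0.25 and 0.084 for FOSL2, between −0.86 and −0.34 for JUN, and 1 to 3 members that fell. Over all genes it gave 2064 to 5195 rises and 2103 to 5177 falls, beside 3020 and 3186. With 2 libraries in a group, that group's spread is shared with the other in the fit. The longest transcript as gene length moved FOSL1 to 109.9 CPM per kilobase in MK5 siRNA cells, beside the FOS and ATF3 levels given above. FOS, at 10 to 16 counts in each control library, has the least certain fold change.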
